A study of Mus musculus with 2 samples.

Results

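The S-phase and G2/M genes of the cell cycle, 45 in all and chosen by name, were followed through 2 single-cell RNA libraries of mouse knee synovium, the tissue that lines the joint. The list holds 19 genes of S phase, the stage of DNA replication, and 26 genes of G2 and mitosis, and all 45 were found by symbol among the 32285 genes of the tables. The MMS library, labelled D14, came from wild-type mice of the MMS model and the control library from wild-type control mice, and each pooled the cells of 20 knees. The labels do not spell out MMS, so the abbreviation is kept here. They also give the cell type as goblet cells, but no kept cell held UMIs of 2 or more of 8 goblet cell markers, and the cells are named below from other markers.

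A dividing cell copies its DNA in S phase and separates the copies in mitosis, and each stage switches on its own set of genes. S-phase genes encode the helicase that opens the DNA, the clamp that holds the polymerase and the enzymes that make deoxynucleotides, and many are driven by E2F factors. G2/M genes encode cyclin B and its kinase, the kinetochore, the spindle motors and the ubiquitin ligase that ends mitosis, and many are controlled by the DREAM complex through CHR elements. Most cells of resting synovium are outside the cycle.

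Each value below is a count of unique molecular identifiers (UMIs, one per captured transcript) summed over a class of cells in a library and divided by all UMIs of that class, in counts-per-million units (CPM). With 1 library per group there is no replicate, so no test was made. The 95% intervals are exact and cover counting error only, and those of CPM and of ratios treat each UMI as a separate draw. The MMS library held 5286 barcodes and 85597195 UMIs and the control library 8810 barcodes and 84900876 UMIs. After filters, 3765 MMS cells with a median of 17444 UMIs and 6891 control cells with a median of 10990 UMIs were kept. The libraries shared 6 barcodes, 4 of them among the kept cells. The cells formed 29 clusters, of which 27 carried 1 of 10 class names, and the clustering was done without cell cycle genes so that dividing cells stayed with their lineage.

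Neutrophil-like cells of the MMS library, which are mature and do not divide, served as a class without division. Their 160 cells held 78 UMIs of the 19 S genes and 67 UMIs of 24 of the G2/M genes, or 45.6 CPM and 39.2 CPM, and 7 S genes and 11 G2/M genes had no UMI there. The 19 control neutrophil-like cells held 12 UMIs of each set, 159.7 CPM, with neutrophil markers at 34611 CPM against 317652 CPM in MMS, so the control class gives no firm level. Hmgb2, a chromatin protein, was the largest exception, with 2370 UMIs in 98.1% of the MMS neutrophil-like cells. Smc4, a condensin subunit, was also widespread outside the cycle, in 57.3% of MMS and 26.8% of control fibroblast-like cells. The G2/M genes are therefore also given without Hmgb2 and Smc4, a choice made after the values were seen, and called the 24 G2/M genes. They still include Kif23, which held 33 of the 67 UMIs above, in 16.9% of MMS neutrophil-like cells.

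The promoters of the members held the motifs that the S and G2/M programmes are known for, in different shares. The windows, from RefSeq on GRCm38.p6, ran from 250 bases before to 50 bases after the gene start and existed for 16 S and 22 G2/M members. A gene with several windows was counted if any of them held the motif. CHR motifs (TTTGAA or TTCGAA) were found in 17 of 22 G2/M members (77.3%) and 3 of 16 S members (18.8%), against 21.7% of all 27025 genes with a window. The E2F motif was searched for as TTCCCGC, as the form TTGGCGC, as the form TTCGCGC and as the form TTGCCGC. These motifs showed the opposite split, in 4 of 22 G2/M members (18.2%) and 11 of 16 S members (68.8%), against 10.9% of all genes with a window. CCAAT boxes, which NF-Y binds, were found in 18 G2/M members (81.8%) and 11 S members (68.8%), against 41.1%. A CHR motif together with a CCAAT box was held by 16 G2/M members (72.7%), against 9.65% of all genes with a window. Both strands were searched, and since CCAAT reads ATTGG on the other strand, it can overlap TTGGCGC. A match describes letters, not binding. Gmnn, Mcm4, Gins2, Aurkb, Ccna2, Smc4 and Tpx2 had no window in the table.

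The 250 bases before the start are shown for the 2 members of each list with most UMIs among those with a window, Pcna and Rrm1, and Hmgb2 and Mki67 (Smc4, with more UMIs than Mki67, had none), and for Uhrf1 and Ube2c, picked afterwards because their MMS over control ratios stood out in endothelial-like cells. Capitals mark the motifs. Pcna lies on the minus strand at chr2:132253181-132253430, where 208 bases are in annotated exons of AV099323 or Pcna. Rrm1 lies on the plus strand at chr7:102441445-102441694, outside exons. Uhrf1 lies on the plus strand at chr17:56303087-56303336, with 16 bases in its own exons, and is the first of 2 windows. Hmgb2 lies on the plus strand at chr8:57511593-57511842, outside exons. Mki67 lies on the minus strand at chr7:135716380-135716629, outside exons. Ube2c lies on the plus strand at chr2:164769679-164769928, with 31 bases in its own exons.
Pcna: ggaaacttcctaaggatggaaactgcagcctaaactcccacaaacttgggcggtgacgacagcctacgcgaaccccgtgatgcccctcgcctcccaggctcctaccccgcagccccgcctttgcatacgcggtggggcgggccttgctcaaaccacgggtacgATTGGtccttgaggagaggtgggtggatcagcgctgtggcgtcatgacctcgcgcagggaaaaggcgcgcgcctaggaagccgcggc
Rrm1: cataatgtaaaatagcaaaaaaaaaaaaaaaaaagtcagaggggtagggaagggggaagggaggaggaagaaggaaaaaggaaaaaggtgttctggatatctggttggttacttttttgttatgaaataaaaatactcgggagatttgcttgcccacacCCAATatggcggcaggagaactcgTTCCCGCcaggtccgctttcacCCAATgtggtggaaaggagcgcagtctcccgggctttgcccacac
Uhrf1: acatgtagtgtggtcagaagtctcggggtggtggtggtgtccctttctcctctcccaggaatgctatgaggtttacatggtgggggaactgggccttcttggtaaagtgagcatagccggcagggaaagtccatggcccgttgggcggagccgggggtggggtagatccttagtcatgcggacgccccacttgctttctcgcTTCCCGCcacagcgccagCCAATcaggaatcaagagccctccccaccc
Hmgb2: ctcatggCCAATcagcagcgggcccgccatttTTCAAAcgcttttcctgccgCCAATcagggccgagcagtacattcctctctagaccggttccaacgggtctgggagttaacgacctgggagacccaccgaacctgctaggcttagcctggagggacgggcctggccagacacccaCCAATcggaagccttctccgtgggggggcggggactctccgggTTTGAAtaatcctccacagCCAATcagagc
Mki67: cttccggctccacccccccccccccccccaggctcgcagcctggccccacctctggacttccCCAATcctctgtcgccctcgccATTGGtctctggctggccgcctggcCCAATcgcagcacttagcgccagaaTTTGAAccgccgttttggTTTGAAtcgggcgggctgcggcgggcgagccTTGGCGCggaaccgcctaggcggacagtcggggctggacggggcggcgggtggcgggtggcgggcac
Ube2c: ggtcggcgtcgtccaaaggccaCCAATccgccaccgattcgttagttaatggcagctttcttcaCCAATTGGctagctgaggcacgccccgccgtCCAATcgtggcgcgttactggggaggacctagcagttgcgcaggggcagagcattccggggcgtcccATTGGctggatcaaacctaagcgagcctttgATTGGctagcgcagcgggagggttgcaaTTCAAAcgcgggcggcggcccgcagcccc

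Rrm1 and Uhrf1 each carried TTCCCGC, at bases -67 and -48 counted from the gene start, and no CHR. Hmgb2 carried a CHR at -30 and another on the opposite strand at -218, with 4 CCAAT boxes. Mki67 had 2 CHR motifs, at -116 and -98, and an E2F motif at -67. Ube2c had a CHR on the opposite strand at -29 and 6 CCAAT boxes, while the Pcna window held only 1 CCAAT box.

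Among the 3 largest classes, the G2/M genes were higher in MMS in fibroblast-like and endothelial-like cells and level in macrophage or monocyte-like cells, while the S genes were higher by a similar factor in all 3. In fibroblast-like cells the 26 G2/M genes summed to 438.7 CPM in MMS and 133.6 CPM in control, a log2 ratio of 1.72 (95% interval 1.68 to 1.76). In endothelial-like cells they summed to 773.5 CPM in MMS and 193.6 CPM in control, a log2 ratio of 1.998 (1.92 to 2.08). Macrophage or monocyte-like cells had 534.8 CPM in MMS and 536.3 CPM in control, a ratio within counting error of 1. The 19 S genes were 1.54-fold higher in fibroblast-like, 1.51-fold in endothelial-like and 1.47-fold in macrophage or monocyte-like cells of the MMS library. Counting error of UMIs is far smaller than these differences, but few cells held most UMIs of the 24 G2/M genes. In MMS, 12 endothelial-like cells held 90.3% of those of their class and 47 fibroblast-like cells 85.8%. The intervals do not cover which cells were sampled, and variation between mice or between preparations could not be measured.

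**Figure D1:**
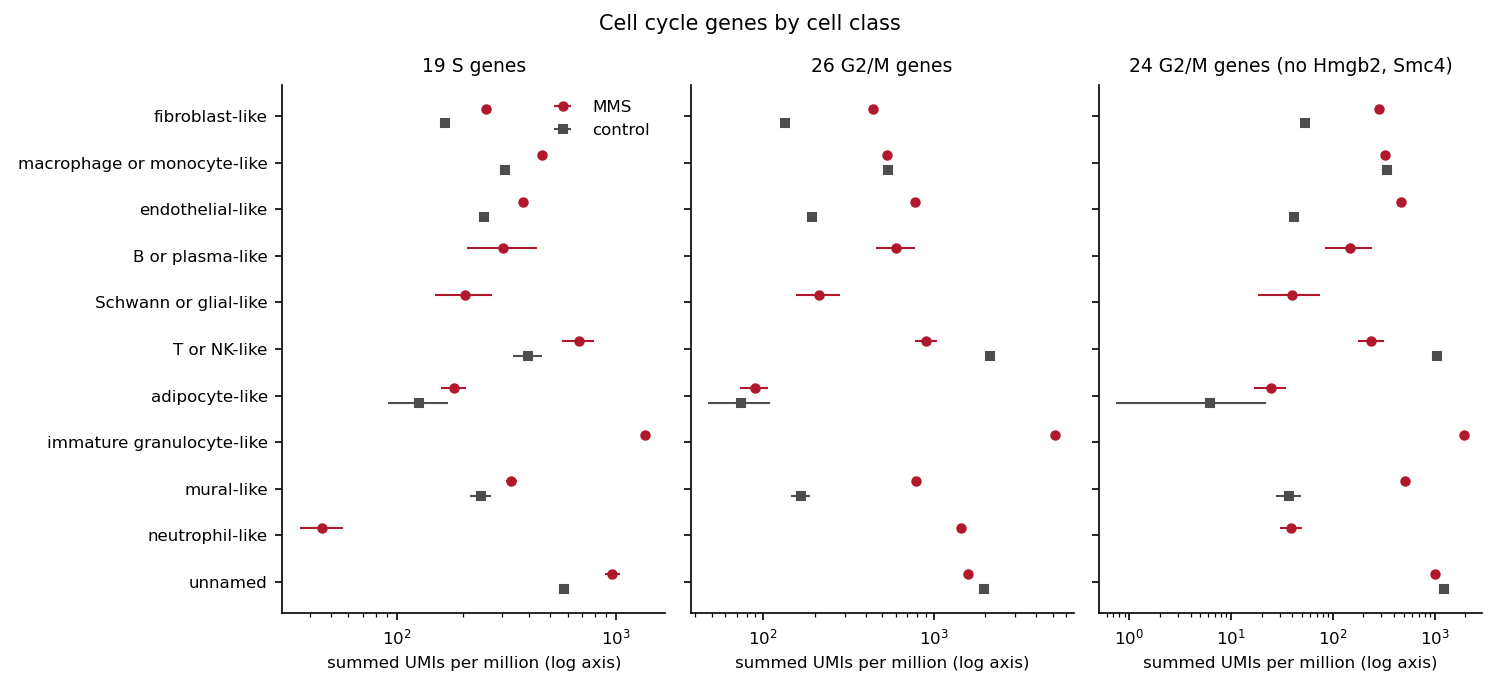
Summed CPM (log axis) of the S genes, the G2/M genes and the 24 G2/M genes in each cell class, MMS (red circles) above control (grey squares), with exact Poisson 95% intervals; a class with under 20 cells of a library has no point for it. The 24 G2/M genes lie apart between libraries in fibroblast-like cells (285.2 against 52.7 CPM) and endothelial-like cells (472.3 against 41.4 CPM) and close together in macrophage or monocyte-like cells (323.1 against 341.2 CPM).

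In fibroblast-like cells (1819 MMS and 3227 control cells), the S genes differed widely in their ratios, from Mcm4, which was level, to Rrm2, which was 6.71-fold higher in MMS. Pcna, the sliding clamp of the polymerase, had 73.5 CPM in MMS and 58.1 CPM in control, a log2 ratio of 0.34. Among the subunits of the replicative helicase, Mcm6 had 17.2 CPM in MMS and 13.1 CPM in control, and Mcm7 16.1 CPM in MMS and 11.8 CPM in control. Mcm4, of the same complex, had 15.5 CPM in MMS and 16.3 CPM in control, with a log2 ratio of -0.08 (-0.22 to 0.07), the lowest of the S list. The helicase subunits thus differed among themselves, and Mcm2 and Mcm5 were over 2-fold higher in MMS, at 2.40-fold and 2.36-fold.

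The enzymes of deoxynucleotide supply differed in the same way. Rrm1, the large subunit of ribonucleotide reductase, had 24.9 CPM in MMS and 15.8 CPM in control, and Tyms, thymidylate synthase, had 19.1 CPM in MMS and 11.98 CPM in control. Rrm2, the small subunit, which is made in S phase, had 10.7 CPM in MMS and 1.60 CPM in control, a log2 ratio of 2.75 (2.40 to 3.11), the highest of the S list. UMIs of Rrm2 were found in 6.93% of MMS and 1.67% of control cells, whereas those of Pcna were found in 69.7% of MMS and 53.6% of control cells. In MMS neutrophil-like cells, at a median of 10910 UMIs per cell, 20.0% had a UMI of Pcna and none of Rrm2. The median depth of fibroblast-like cells was 27772 UMIs in MMS and 13754 UMIs in control, so shares of cells with a UMI are not at equal depth.

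Of the S list, 8 of 19 members were at least 2-fold higher in MMS fibroblast-like cells and none 2-fold lower. Over all 16410 genes with 10 or more UMIs in the class, 11.7% were 2-fold higher and 9.79% 2-fold lower. Beside Rrm2, Mcm2 and Mcm5, the 8 were Cdc45, which activates the helicase, Dtl, a receptor of the ubiquitin ligase that degrades the licensing factor Cdt1, Gmnn, the inhibitor of Cdt1, Uhrf1, which reads half-methylated DNA behind the fork, and the remodeller Hells. The intervals of 17 of 19 lay above 0, and those of Mcm4 and Cdc6 included it. The median log2 ratio was 0.94 over the S list, against 0.08 over all genes.

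The G2/M genes were higher as a whole, and 25 of 26 were at least 2-fold higher in MMS fibroblast-like cells. Mki67, the proliferation marker that coats mitotic chromosomes, had 29.1 CPM in MMS and 4.13 CPM in control, a log2 ratio of 2.82 (2.60 to 3.04). Top2a, the topoisomerase that untangles sister chromatids, had 31.3 CPM in MMS and 3.95 CPM in control. Ube2c, the ubiquitin-conjugating enzyme of the anaphase-promoting complex, had 23.2 CPM in MMS and 4.15 CPM in control. Mki67 UMIs were found in few cells, 5.003% of MMS and 0.465% of control cells.

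Kinetochore and chromosomal passenger genes followed the same pattern. Cenpf, an outer kinetochore protein, had 21.4 CPM in MMS and 3.78 CPM in control. Birc5 (survivin), which holds the passenger complex at the centromere, had 22.2 CPM in MMS and 2.53 CPM in control, a log2 ratio of 3.13 (2.86 to 3.41), the highest of the list. The smallest G2/M ratios belonged to the widespread members, Hmgb2 with 88.2 CPM in MMS and 49.4 CPM in control, a log2 ratio of 0.84, and Smc4 with 65.3 CPM in MMS and 31.5 CPM in control, a log2 ratio of 1.05. The median of the list was 2.35. Without Hmgb2 and Smc4, the 24 G2/M genes summed to 5.41-fold more CPM in MMS.

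**Figure D2:**
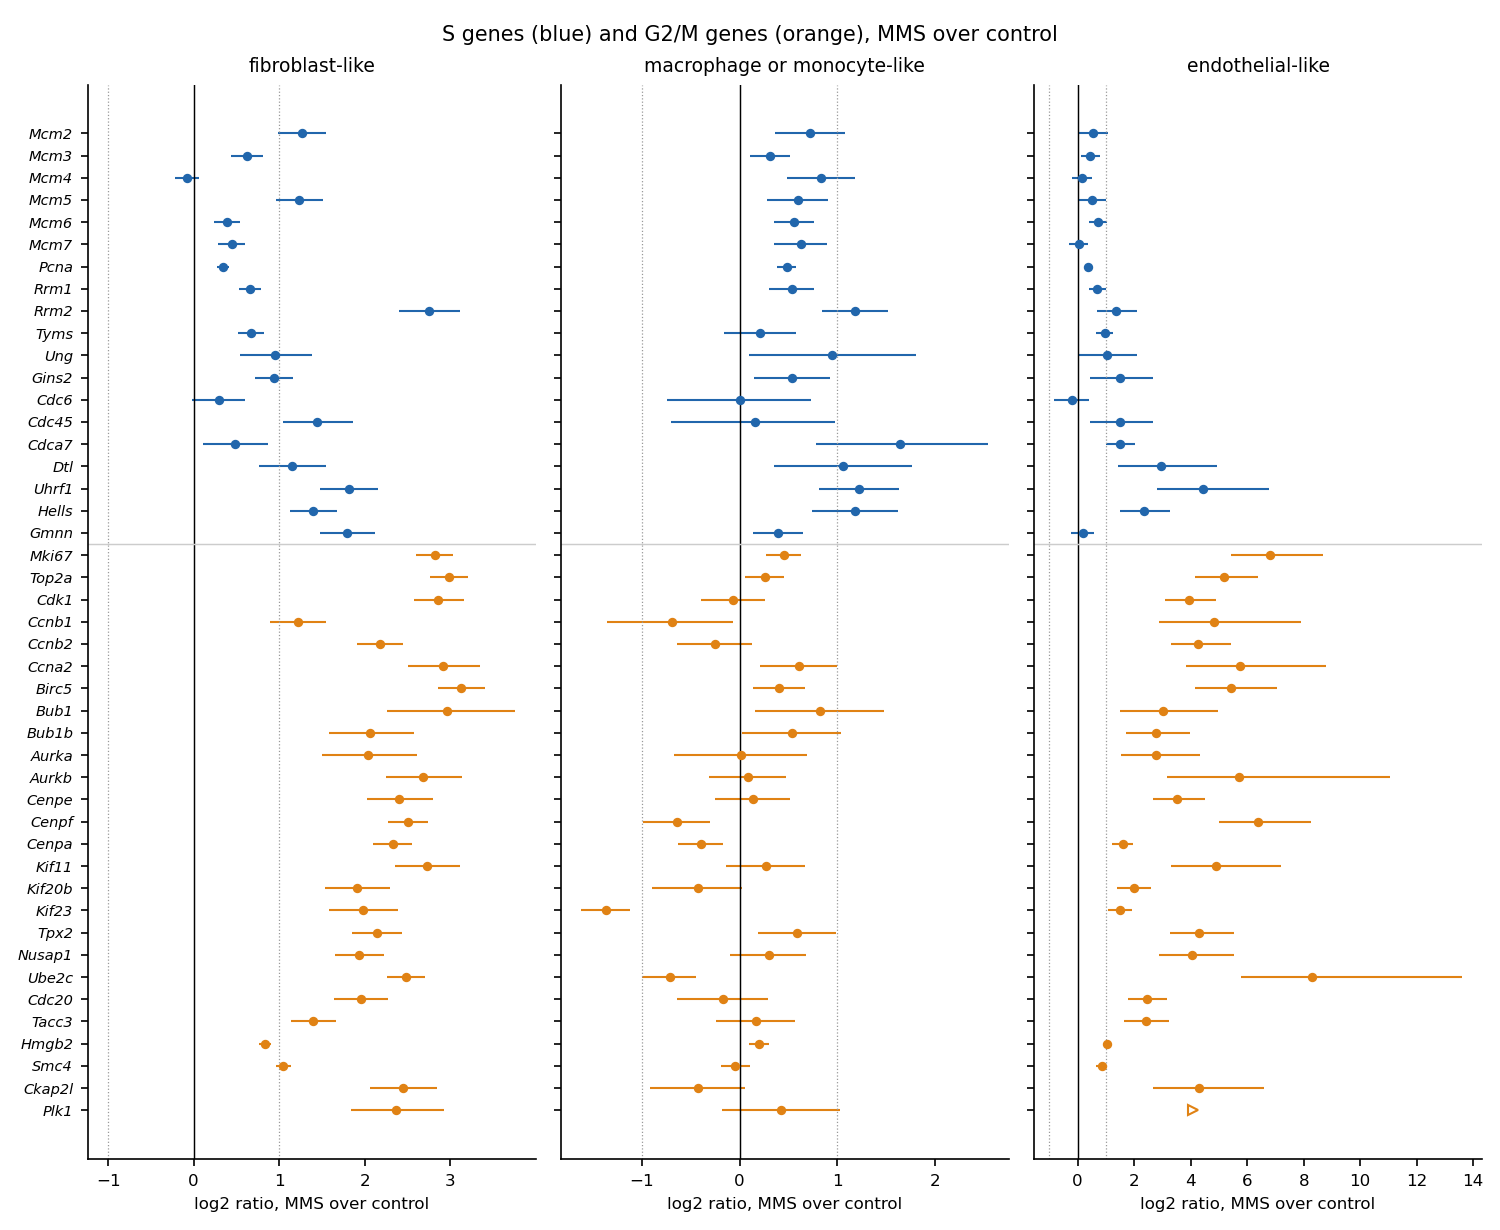
Log2 ratio of CPM, MMS over control, for each of the 45 members in the 3 largest classes, with exact 95% intervals; dotted lines mark 2-fold, and the open triangle for Plk1 is a lower bound because control held 0 UMIs. G2/M members lie to the right of 0 in fibroblast-like and endothelial-like cells and on both sides of 0 in macrophage or monocyte-like cells; the x axes differ in scale.

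To count cells at equal depth, each cell was thinned at random to 2000 UMIs, and a cell with 3 or more UMIs of the 24 G2/M genes is called a G2/M cell here. Among fibroblast-like cells, 47 of 1704 MMS cells (2.76%, exact interval 2.03 to 3.65%) and 9 of 3185 control cells (0.283%, 0.129 to 0.536%) were G2/M cells. Cells with 3 or more S UMIs made up 2.70% of MMS and 0.848% of control cells, and 24 MMS and 2 control cells passed both thresholds. Another 115 MMS and 42 control cells were too shallow to be thinned. A cell near the threshold can fall on either side of it, and 12 MMS and 4 control cells had 2 UMIs while 4 MMS and 2 control cells had 3.

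The G2/M cells of the class held most of its G2/M transcripts. They contained 85.8% of the UMIs of the 24 genes in MMS and 69.6% in control, at 6410 CPM in MMS and 6816 CPM in control. The remaining fibroblast-like cells held 41.7 CPM in MMS and 16.1 CPM in control. The cells were chosen on these genes by 1 threshold, which largely sets their level, so these values are a description.

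Within the class, G2/M cells were spread over several clusters in MMS. The cluster led by Mmp13 and Lrrc15, found mostly in MMS, held 19 G2/M cells among 539 MMS cells and 1 among 39 control cells. The cluster led by Hbegf and Prg4, the lubricin gene of the synovial lining, held 13 of 517 MMS and 0 of 244 control cells, and the 24 genes stood at 364.3 CPM in MMS and 16.4 CPM in control. The cluster led by Col11a1 and Acan, which had no control cell, held 9 of 236 MMS cells. The cluster led by Hbb-bs, a globin gene, and Pcsk5 held 6 of 103 MMS and 0 of 119 control cells. In the Mmp13, Prg4 and Hbb-bs clusters the share intervals of the libraries overlapped. For Prg4 they were 1.35 to 4.26% in MMS and 0 to 1.5% in control. For Hbb-bs they were 2.17 to 12.25% in MMS and 0 to 3.05% in control. The cluster led by Cxcl14 and Apod held 0 of 224 MMS (up to 1.63%) and 2 of 400 control cells (0.0606 to 1.79%), so the shares give no order. The 24 genes were lower in MMS there, at 19.3 CPM against 73.7 CPM in control. The 38 control Mki67 UMIs of that cluster lay in 0.5% of its 400 cells.

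The 2 libraries filled the class from different clusters. MMS fibroblast-like cells came mostly from the Mmp13 (593), Prg4 (520) and Acan (240) clusters, and control cells mostly from those led by Dkk2 and Myoc (690), Pi16 (585) and Cxcl14 (400). With each cluster of 20 or more cells in both libraries given equal weight, the log2 ratio of the 26 G2/M genes was 1.22 in place of 1.72, and without the Acan cluster, whose leading genes include as many tendon as fibroblast markers, it was 1.66. Markers of neutrophils summed to 59.7 CPM in MMS and 0.768 CPM in control fibroblast-like cells, against 317652 CPM in MMS neutrophil-like cells. In those neutrophil-like cells the 24 genes stood at 39.2 CPM. Tendon markers summed to 1336 CPM in MMS and 193.5 CPM in control fibroblast-like cells and erythroid markers to 621.8 CPM in MMS and 241.6 CPM in control, and their part in the result was not tested.

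**Figure D3:**
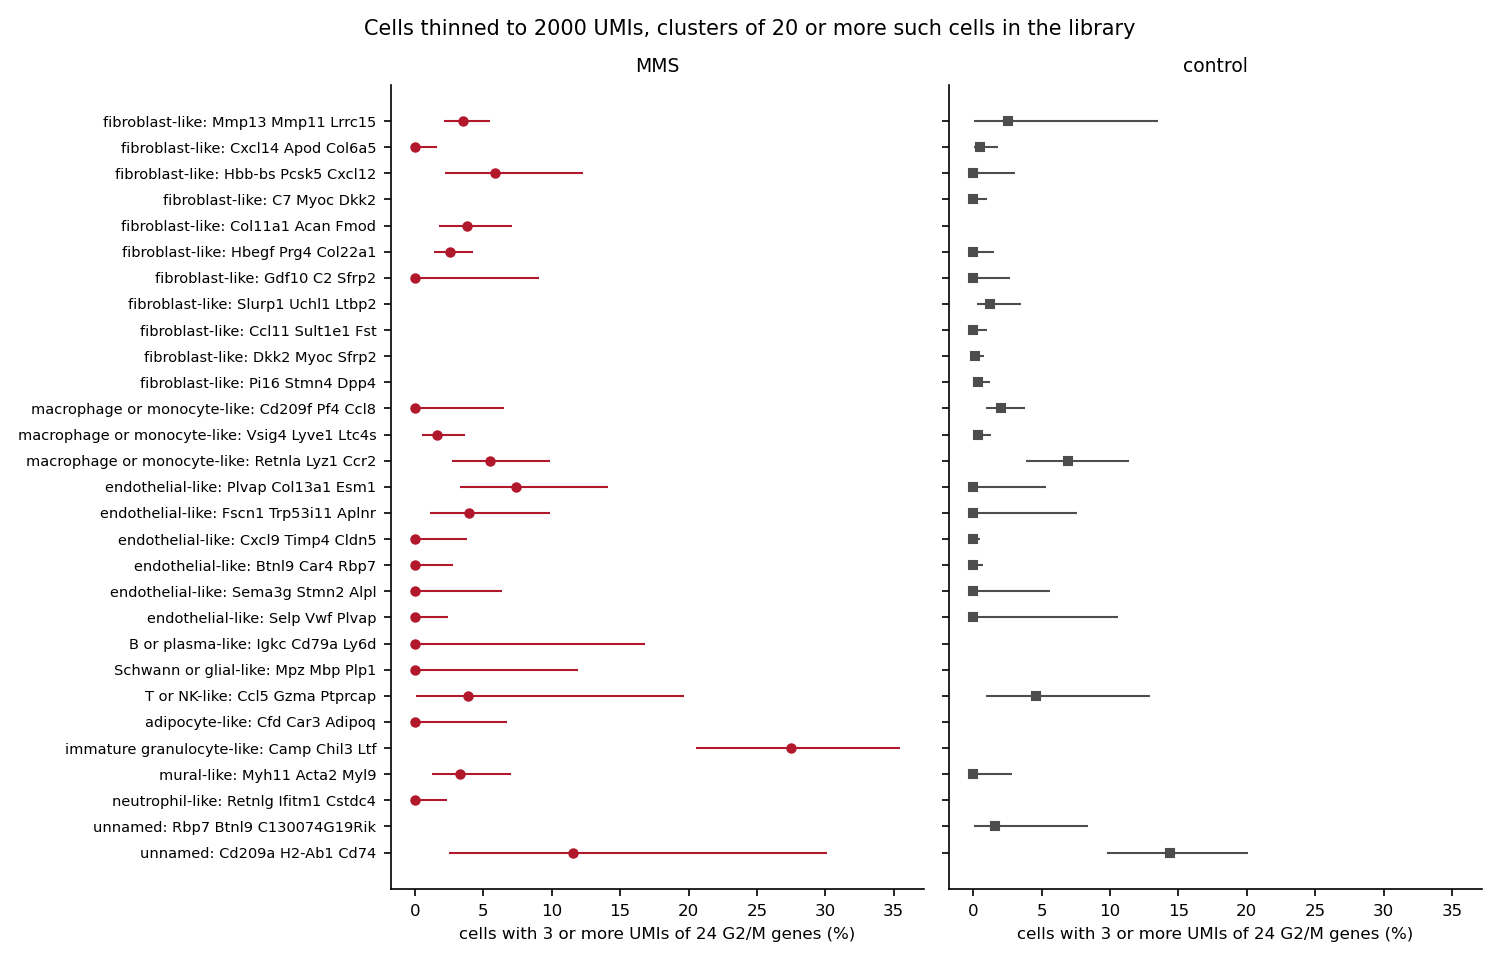
Share of thinned cells with 3 or more UMIs of the 24 G2/M genes in each cluster, MMS (left, red) and control (right, grey), with exact 95% intervals; rows give the class and the 3 leading genes, and a cluster with under 20 such cells of a library has no point. MMS fibroblast-like and endothelial-like clusters reach 5.83% and 7.41%, and each control cluster of these classes holds at most 3 G2/M cells.

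Endothelial-like cells (669 MMS and 1669 control cells) had the highest log2 ratio of summed G2/M CPM of the 3 classes, 1.998 against 1.72 in fibroblast-like cells, but not the largest difference in the share of cells with 3 or more UMIs of the list, 1.41 against 2.57 percentage points. The order of the log2 ratios also turned as a mean over cells (0.86 against 1.63), with cell cycle genes kept in the clustering (0.25 against 1.67) and with doublets kept (1.49 against 1.54). With clusters at resolution 2.0 it turned as well, at 1.45 in endothelial-like cells, while fibroblast-like cells stayed within 1.68 to 1.76. Of 26 members, 25 were 2-fold higher in MMS and none was 2-fold lower, against 10.4% of 13074 genes 2-fold higher and 4.72% 2-fold lower. Only 9 of the 26 reached 10 UMIs in each library and 17 did so only in MMS, so most entered this count through MMS. In MMS, 12 cells held 90.3% of the UMIs of the 24 G2/M genes, so the members are not separate observations. Mki67 had 390 UMIs in MMS and 4 UMIs in control, or 57.5 CPM in MMS and 0.514 CPM in control. Of its MMS UMIs, 367 came from these 12 cells, the G2/M cells counted below. Cenpf had 292 UMIs in MMS and 4 UMIs in control. Ube2c had 271 UMIs in MMS and 1 UMI in control, a log2 ratio of 8.28 (5.79 to 13.6). Control endothelial-like cells thus held almost no transcripts of these genes. Plk1, the mitotic polo kinase, had 44 UMIs in MMS and 0 UMIs in control, at least 16.8-fold higher when 3 counts are taken as the floor of the control library.

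Members with broader expression differed less. Cenpa, the histone H3 variant of centromeres, had 32.6 CPM in MMS and 10.8 CPM in control, in 10.2% of MMS and 4.43% of control cells. The median depth of the class was 7587 UMIs in MMS and 3916 UMIs in control, so these shares are not at equal depth. Hmgb2 had 222.3 CPM in MMS and 108.3 CPM in control. Smc4 had 79.0 CPM in MMS and 43.9 CPM in control, a log2 ratio of 0.85, the lowest of the list and the only one under 2-fold. The median log2 ratio of the list was 4.06, against 0.06 over all genes. That median, too, rests mostly on members that reached 10 UMIs only in MMS.

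Of the S genes, 8 of 19 were at least 2-fold higher in MMS endothelial-like cells. The 6 with most UMIs differed by under 2-fold: Pcna had 101.4 CPM in MMS and 78.2 CPM in control, and Mcm7 had 21.7 CPM in MMS and 21.1 CPM in control. Mcm3 had 25.9 CPM in MMS and 19.01 CPM in control, and Mcm6 had 30.4 CPM in MMS and 18.4 CPM in control. Tyms had 39.3 CPM in MMS and 20.3 CPM in control, and Rrm1 had 35.1 CPM in MMS and 21.6 CPM in control. Uhrf1 stood apart, with 57 UMIs in MMS and 3 UMIs in control, a log2 ratio of 4.45 (2.83 to 6.77). Cdc6, the licensing factor that loads the helicase, had 6.04 CPM in MMS and 6.94 CPM in control, a log2 ratio of -0.20 (-0.82 to 0.41).

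Of MMS endothelial-like cells 12 of 643 (1.87%, 0.968 to 3.24%) were G2/M cells, and of control cells 0 of 1512, which allows a share of up to 0.198% as 3 cells of 1512 (exact interval 0 to 0.244%). Another 26 MMS and 157 control cells of the class were too shallow to be thinned. The 12 cells held 90.3% of the MMS UMIs of the 24 genes in the class. Of the cells deep enough to be thinned, the other MMS cells stood at 49.6 CPM and the control cells at 41.5 CPM. The 12 were chosen on these genes, so these values are a description. The G2/M cells lay in 2 of the 6 endothelial-like clusters. The cluster led by Plvap and Esm1, a gene of sprouting tip cells, held 8 of 108 MMS and 0 of 68 control cells, with the 24 genes at 1489 CPM in MMS and 46.8 CPM in control. The cluster led by Fscn1 and Aplnr held 4 of 101 MMS and 0 of 47 control cells. In the Plvap and Aplnr clusters the share intervals of the libraries overlapped. For Plvap they were 3.25 to 14.1% in MMS and 0 to 5.28% in control. For Aplnr they were 1.09 to 9.83% in MMS and 0 to 7.55% in control. In the clusters led by Cxcl9, Btnl9, Sema3g and Selp, no thinned cell of either library was a G2/M cell, and the 24 genes stood between 40.4 and 59.1 CPM in MMS and between 33.9 and 56.2 CPM in control.

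Control endothelial-like cells came mostly from the Cxcl9 (865) and Btnl9 (592) clusters, whereas the Plvap and Aplnr clusters gave 108 and 101 of the MMS cells. Together the 12 G2/M cells held UMIs of all 8 endothelial markers, which summed to 5889 CPM against 8246 CPM in the other MMS endothelial-like cells, while the 9 fibroblast markers summed to 332.6 CPM against 360.8 CPM. The result depends on how the cells were clustered: with cell cycle genes kept in the clustering, 11 of the 12 cells moved to another named class, the log2 ratio of the G2/M genes in endothelial-like cells was 0.25, and 6 of 26 members were 2-fold higher. The 12 G2/M cells had a median of 35568 UMIs, against 7812 UMIs in the other MMS endothelial-like cells. Neutrophil markers summed to 71.9 CPM in MMS and 1.41 CPM in control endothelial-like cells and erythroid markers to 581.7 CPM in MMS and 126.3 CPM in control; their part in the result was not tested.

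In macrophage or monocyte-like cells (563 MMS and 1214 control cells), S genes were higher in MMS and G2/M genes were split. Of the S list, 5 of 19 members were at least 2-fold higher, against 4.77% of 13323 genes, and 16 of 19 intervals lay above 0. Pcna had 168.0 CPM in MMS and 120.3 CPM in control. Mcm3 had 36.2 CPM in MMS and 29.2 CPM in control, Mcm6 had 41.6 CPM in MMS and 28.3 CPM in control, and Mcm7 had 24.6 CPM in MMS and 15.9 CPM in control. All 19 S members had point ratios above 0 in this class, with a median log2 ratio of 0.60. Rrm1 had 32.2 CPM in MMS and 22.3 CPM in control, and Gmnn had 24.6 CPM in MMS and 18.7 CPM in control. Cdca7, which activates the remodeller Hells, had 32 UMIs in MMS and 19 UMIs in control, a log2 ratio of 1.65 (0.78 to 2.55), and Cdc6 was level, at 2.97 CPM in MMS and 2.95 CPM in control.

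Of the G2/M list, the class had no member 2-fold higher in MMS and 1 that was 2-fold lower, where 5.02% of its genes were 2-fold lower. The intervals of 8 members lay above 0, of 5 below 0, and of 13 on both sides. Mki67 had 50.8 CPM in MMS and 37.1 CPM in control, and Top2a had 38.4 CPM in MMS and 32.1 CPM in control. Bub1, a kinase of the spindle checkpoint, had the highest ratio, 4.57 CPM in MMS and 2.58 CPM in control, a log2 ratio of 0.82 (0.16 to 1.48). Hmgb2 had 146.9 CPM in MMS and 128.2 CPM in control, and Smc4 had 64.8 CPM in MMS and 66.9 CPM in control.

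Below 0 were Kif23, Ube2c, Ccnb1, Cenpf and Cenpa. Kif23, a motor of the central spindle in cytokinesis, had 18.3 CPM in MMS and 47.1 CPM in control, a log2 ratio of -1.36 (-1.62 to -1.12). It was also found outside G2/M cells: in control, 30.4% of the cells that were not G2/M cells had a Kif23 UMI, and in the cluster led by Cd209f and Pf4 43.9% of 456 control cells had one while 5.26% had one of Mki67. Neutrophil-like cells held Kif23 UMIs as well, in 16.9% of MMS and 42.1% of the 19 control cells, at 19.3 CPM in MMS and 119.8 CPM in control from 9 UMIs. Kif23 is part of the 24 G2/M genes, which summed to 323.1 CPM in MMS and 341.2 CPM in control macrophage or monocyte-like cells. It also counts towards G2/M cells, and no sum or share without Kif23 was made. Ube2c had 16.8 CPM in MMS and 27.6 CPM in control, Ccnb1, cyclin B1, had 3.32 CPM in MMS and 5.35 CPM in control, and Cenpf had 11.1 CPM in MMS and 17.3 CPM in control. Cenpa had 25.03 CPM in MMS and 32.9 CPM in control and was found in 21.8% of control cells that were not G2/M cells.

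The share of G2/M cells was 15 of 552 (2.72%, 1.53 to 4.44%) in MMS and 25 of 1193 (2.10%, 1.36 to 3.08%) in control, with overlapping intervals. The class mixed clusters whose values lay in opposite directions, but within each cluster the share intervals of the libraries overlapped. In the cluster led by Vsig4 and Lyve1, genes of resident lining and perivascular macrophages, 5 of 315 MMS (0.517 to 3.67%) and 2 of 542 control cells (0.0447 to 1.33%) were G2/M cells. The 24 genes stood at 257.2 CPM in MMS and 124.2 CPM in control there. In the cluster led by Retnla and Ccr2, the receptor of recruited monocytes, 10 of 182 MMS (2.67 to 9.87%) and 14 of 202 control cells (3.84 to 11.4%) were, at 503.7 CPM in MMS and 752.6 CPM in control. In the Cd209f cluster, 0 of 55 MMS (up to 6.49%) and 9 of 449 control cells (0.921 to 3.77%) were, at 62.7 CPM in MMS and 391.1 CPM in control. The class sum moved with the settings, between -0.39 and 0.26 on the log2 scale, and 6 of 11 alternatives kept its sign.

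Immature granulocyte-like cells had the highest share of G2/M cells of the named classes, 41 of 149 MMS cells (27.5%, 20.5 to 35.4%), with 1923 CPM of the 24 G2/M genes and 1357 CPM of the S genes. Top2a was found in 30.3% and Mki67 in 40.1% of the 152 cells, and Hmgb2 reached 3037 CPM in 99.3% of them. The 12 control cells of that cluster lacked 7 of 9 markers of the class and summed to 24455 CPM of macrophage markers, so no comparison was made. Mural-like cells, the pericytes and smooth muscle of vessels, held 6 G2/M cells of 182 in MMS and 0 of 128 in control, which allows up to 2.34%, and Mki67 had 199 UMIs in MMS and 1 UMI in control. Fibroblast markers summed to 26779 CPM in MMS and 3798 CPM in control mural-like cells, above the 11970 CPM of mural markers in MMS, and their part in this difference was not tested.

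T or NK-like cells had 1 G2/M cell of 26 in MMS and 3 of 65 in control, and the 24 genes were lower in MMS, at 239.3 CPM against 1066 CPM in control, a log2 ratio of -2.16 (-2.61 to -1.73). The 3 control cells held 405 of the 448 control UMIs. In the unnamed cluster led by Cd209a and H2-Ab1, genes of dendritic cells, 3 of 26 MMS and 28 of 195 control cells were G2/M cells. Neutrophil-like cells had a log2 ratio of -2.03 (-2.93 to -1.01) for the 24 genes, from 67 UMIs in MMS and 12 UMIs in control. The control cells of that class give no firm level, as said above, so the ratio is not read as a difference. Of the MMS cells, 0 of 158 were G2/M cells, which allows up to 1.90%, although 80 of the 158 passed when Hmgb2 and Smc4 were counted. Over all kept cells, 131 of 3560 in MMS (3.68%) and 66 of 6412 in control (1.03%) were G2/M cells.

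Genes that act around the cycle, in lists compiled for this comparison, were counted against the same shares of all genes, 11.7% 2-fold higher and 9.79% 2-fold lower in fibroblast-like cells. In that class 7 of 13 histone genes were 2-fold higher in MMS and none lower, with Hist1h2ab at 275 UMIs in MMS and 7 UMIs in control and H2afx, a replacement variant, at 23.99 CPM in MMS and 22.45 CPM in control. Of 28 other proliferation genes 12 were 2-fold higher, from Cdca3, a trigger of mitotic entry (14.8 CPM in MMS, 2.06 CPM in control), to Tuba1b, a tubulin of all cells (179.6 CPM in MMS, 231.8 CPM in control). Among 20 pocket protein, E2F and DREAM genes 5 were 2-fold higher, from E2f8 (log2 ratio 3.30) to E2f4 (-0.22). Of 22 anaphase-promoting complex and checkpoint genes 4 were, from Ttk (2.61) to Anapc11 (-0.16), a share near that of all genes.

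The 11 G1 cyclin and kinase genes differed in both directions in fibroblast-like cells, where 3 were 2-fold higher and 1 was 2-fold lower. Cdk6, a partner of D-type cyclins, had 42.1 CPM in MMS and 5.27 CPM in control, whereas Ccnd1, cyclin D1, had 26.3 CPM in MMS and 56.8 CPM in control. Among 7 CDK inhibitors, Cdkn1a (p21) had 179.4 CPM in MMS and 560.9 CPM in control, and Cdkn2a (p16 and p19ARF) had 7.97 CPM in MMS and 1.31 CPM in control. Of 14 quiescence and antiproliferative genes 5 were 2-fold lower and none 2-fold higher in MMS: Klf4, a zinc finger factor that restrains the cycle, had 526.9 CPM in MMS and 1937 CPM in control, and Cdkn1c (p57) had the highest ratio of that list, 0.47. Of 13 p53 targets 1 was 2-fold higher, Gadd45a, with 133.4 CPM in MMS and 25.3 CPM in control, and Eda2r had the lowest ratio, -0.30, a count near the share of all genes.

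In endothelial-like cells 16 of 28 other proliferation genes and 6 of 13 histone genes were 2-fold higher in MMS and none lower, beside 10.4% of all genes higher. Tk1, the S-phase thymidine kinase, had 63 UMIs in MMS and 1 UMI in control, Hist1h2ap had 675 UMIs in MMS and 22 UMIs in control, and Foxm1, a factor that drives G2/M genes, had 62 UMIs in MMS and 7 UMIs in control. Cdkn1c had 102.8 CPM in MMS and 492.5 CPM in control. At the low ends of these lists stood Tuba1b (log2 ratio -0.06), Hist1h1c, a linker histone (-0.32), and Lin52, a subunit of the DREAM core (-0.69). Of the anaphase-promoting complex and checkpoint list, 5 of 22 were 2-fold higher, from Cdc25b, a phosphatase that activates mitotic CDK (1.82), to Pttg1, securin (-0.56). The G1 list ran from Cdc25a, the phosphatase of S-phase entry (0.92), to Ccnd2 (-0.52), with 2 of 11 being 2-fold higher. No p53 target was 2-fold apart, the range being from Phlda3 (0.90) to Gadd45a (-0.59). Of 6 measured CDK inhibitors 1 was 2-fold higher in MMS and 2 were 2-fold lower, beside 4.72% of all genes lower. Their list summed to 455.6 CPM in MMS and 1238 CPM in control. Of 14 quiescence genes 1 was 2-fold higher and 1 was 2-fold lower, and Cdkn1c is on both lists. Among inhibitors and quiescence genes with 50 or more UMIs the highest were Cdkn2d (0.34) and Zfp36l2, an RNA-decay factor (1.46). These extremes are over genes with 50 or more UMIs.

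Macrophage or monocyte-like cells showed few such differences. Of the lists, 3 of 13 histone genes and 2 of 28 other proliferation genes were 2-fold higher in MMS and none lower, beside 4.77% of all genes higher, with Hist1h2ap at 84.1 CPM in MMS and 30.9 CPM in control and Tk1 at 16.2 CPM in MMS and 7.63 CPM in control. Cks2, a CDK-binding subunit of mitosis, had 30.9 CPM in MMS and 58.0 CPM in control, and Ccnd2, cyclin D2, had 5.26 CPM in MMS and 20.7 CPM in control. In the pocket protein, E2F and DREAM list 2 of 20 were 2-fold higher, a count too small to set apart from the 4.77% of all genes, like the 2 of 28, and the log2 ratios ran from 1.67 for E2f8 to -0.33 for Lin37. In the checkpoint list, with none 2-fold apart, they ran from 0.58 for Anapc4 to -0.72 for Wee1, the kinase that holds CDK1 inactive. Ccne1, cyclin E1, had the highest ratio of the G1 list (0.89), where 1 of 11 genes, Ccnd2, was 2-fold lower. No CDK inhibitor, quiescence gene or measured p53 target was 2-fold apart: the inhibitors ran from Cdkn2c (0.23) to Cdkn2b (-0.93), the quiescence genes from Tob1 (0.41) to Cdkn1c (-0.70), and the p53 targets from Gadd45a (0.88) to Phlda3 (-0.99). The lowest histone was Hist1h4c (-0.48).

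Within the MMS library, the 47 fibroblast-like G2/M cells were set against the 1657 others of their class for genes that did not choose them. All 19 S genes were at least 2-fold higher in the G2/M cells, with a median log2 ratio of 3.90, while of 15202 genes with 10 or more UMIs 11.7% were 2-fold higher and 8.3% 2-fold lower. Rrm2 stood at 212.3 CPM against 2.70 CPM, Uhrf1 at 109.0 CPM against 2.72 CPM and Gmnn at 107.4 CPM against 3.68 CPM. The S genes with the smallest ratios were Ung, a uracil-removing glycosylase, at 7.20 CPM against 2.74 CPM, and Cdca7, at 8.22 CPM against 2.68 CPM. Pcna was found in 91.5% of G2/M cells and 73.0% of the others, at 371.6 CPM against 61.5 CPM. The G2/M cells were deeper, with a median of 45420 UMIs against 28506 UMIs, and these cells share 1 library, so they are not replicates.

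The histone and other proliferation lists were higher in the G2/M cells throughout, and the CDK inhibitors were divided. All 13 histone genes were 2-fold higher, Hist1h2ap at 2552 CPM against 3.40 CPM, and so were all 28 other proliferation genes, with Stmn1, a tubulin-binding protein, at 1229 CPM against 21.4 CPM. The E-type cyclins Ccne1 and Ccne2 stood at 50.4 CPM against 1.97 CPM and 56.5 CPM against 2.03 CPM, while Ccnd1 was level at 29.8 CPM against 26.2 CPM. Of 7 CDK inhibitors 3 were 2-fold higher and 1 was 2-fold lower, with a median log2 ratio of 0.36. The INK4 inhibitors Cdkn2c and Cdkn2d both stood at 251.9 CPM, against 27.3 CPM and 28.2 CPM, and Cdkn2a stood at 37.0 CPM against 6.84 CPM, whereas Cdkn1c stood at 33.4 CPM against 89.6 CPM. Cdkn1a stood at 227.2 CPM against 177.5 CPM, and Cdkn1b (48.8 CPM against 53.3 CPM) and Cdkn2b (4.63 CPM against 8.23 CPM) had intervals on both sides of 0. Fibroblast markers summed to 67366 CPM in the G2/M cells against 85651 CPM in the others, and all 9 were detected; endothelial markers summed to 104.9 CPM against 15.04 CPM, with Vwf at 0.

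**Figure D4:**
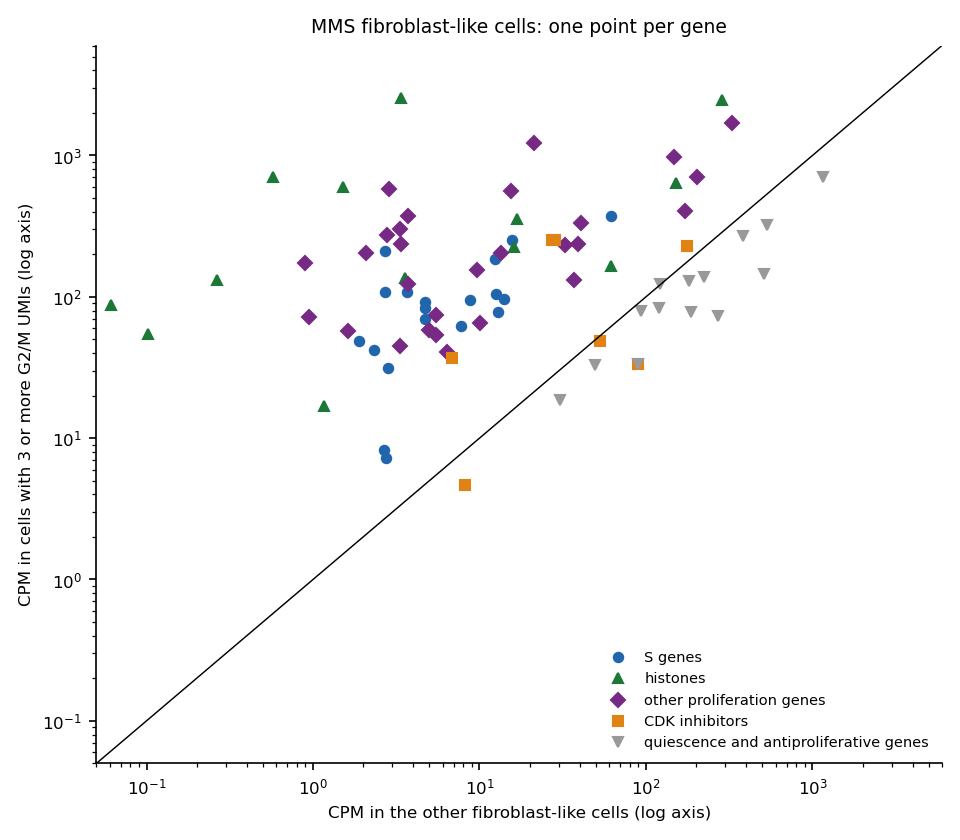
CPM of genes that did not define the G2/M cells, in the 47 MMS fibroblast-like G2/M cells (y axis) against the 1657 other MMS fibroblast-like cells (x axis), 1 point per gene, both axes log, with the line of equality. S genes, histones and other proliferation genes lie above the line, from 7.20 CPM (Ung) to 2552 CPM (Hist1h2ap) in G2/M cells, and most quiescence genes lie below it, 4 of 14 by 2-fold or more.

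The same split was found in macrophage or monocyte-like cells of both libraries. The S genes had a median log2 ratio of 3.36 between G2/M and other cells in MMS and 3.44 in control, with 19 of 19 at least 2-fold higher in each, beside 13.8% of all genes in MMS and 13.6% in control; 10.7% of genes in MMS and 9.18% in control were 2-fold lower. Rrm2 stood at 405.0 CPM against 1.08 CPM in MMS and at 208.7 CPM against 0.958 CPM in control. In the 12 endothelial-like G2/M cells of MMS, 16 of 19 S genes were 2-fold higher, beside 9.83% of all genes higher and 10.8% lower, Foxm1 stood at 107.5 CPM against 1.28 CPM, and Ccnd2 at 21.9 CPM against 136.3 CPM. G2/M cells of the MMS library thus also held S-phase transcripts: of the S-gene UMIs, 31.0% in fibroblast-like, 25.9% in endothelial-like and 29.9% in macrophage or monocyte-like cells came from them.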

How the data were processed

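The deposited matrices hold raw UMI counts per gene and cell barcode, whole numbers that the authors made with Cell Ranger from 10x 3' v3.1 libraries, 1 per group. The version is 5.0.0 per the file headers and 2.0.0 per the submitters' processing notes, which also name mm10. The MMS library had 85597195 and the control library 84900876 UMIs. Such counts cover the 3' end, so levels were not compared between genes.

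A barcode was kept if it had 1000 or more UMIs and 500 or more detected genes, with mitochondrial UMIs not above 10% of its total, and doublets called by Scrublet at an expected rate of 0.06 were removed, 106 in MMS and 184 in control (scanpy 1.11.5, Python 3.11.15). Both libraries were clustered together on 2000 variable genes, 30 components and 15 neighbours by the Leiden method at resolution 1, leaving out 285 cell cycle genes. A cluster was named from marker lists, with naming thresholds set after the clusters were seen, and called "-like". Shares and class sizes can depend on these rebuilt names.

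UMIs were summed per class and library. The ratio of MMS to control has a 95% interval from the exact binomial distribution given the total, levels have exact Poisson and shares exact Clopper-Pearson intervals, and a count of 0 takes 3 counts as floor. Genes with 10 or more UMIs in the class over both libraries gave the background, as did genes with 10 or more UMIs in G2/M cells and the others together for that comparison. The ratio calculation was run on simulated counts whose UMIs were drawn independently, as the interval assumes. That run checks the arithmetic, not the interval width where few cells hold most UMIs. The 45 members, the other gene lists and the markers were chosen with earlier results of these data known. Members named with values in each class were the 6 of each list with most UMIs and those with the highest and lowest ratio at 20 or more UMIs. From other lists they were the extremes at 50 or more UMIs. Genes named otherwise were picked after their values were seen: the 8 S genes counted as higher in fibroblast-like cells apart from Rrm2, Plk1, the macrophage members below 0, those of the smaller classes and those set between G2/M and other cells. Alternatives varied the filters, resolution, thinning and members.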

Additional observations from a re-analysis of the deposited data

Results flagged for a closer look

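In macrophage or monocyte-like cells 5 G2/M genes had MMS over control ratios below 0 with intervals that excluded it, while the same genes were higher in MMS in fibroblast-like and endothelial-like cells. The log2 ratios were -1.36 for Kif23, -0.71 for Ube2c, -0.69 for Ccnb1, -0.64 for Cenpf and -0.39 for Cenpa. The difference between the classes was not tested.

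In the unnamed cluster led by Rbp7 and Btnl9, 33.3% of 18 MMS cells deep enough to be thinned were G2/M cells, against 1.56% of 64 control cells. The cluster entered no class comparison, and most of its cells were too shallow to be thinned.

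Outside the main comparisons, the 24 G2/M genes had a log2 ratio of 3.80 in mural-like cells, beside the fibroblast markers given above, and of -2.16 in T or NK-like and -2.03 in neutrophil-like cells, where few cells or UMIs stood behind 1 library. The control neutrophil-like cells give no firm level. The value computed for immature granulocyte-like cells, 4.59, is no comparison of that class, since it sets MMS cells against 9 UMIs of 12 control cells that lack most of its markers.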

How the results depend on the processing

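Values are log2 ratios of summed CPM unless called a share, which is the MMS minus control difference in percentage points of cells with 3 or more UMIs of the list. The reported values were 0.62 (S) and 1.72 (G2/M) in fibroblast-like, 0.56 and -0.004 in macrophage or monocyte-like and 0.59 and 1.998 in endothelial-like cells, with shares of 1.85 and 2.57, 3.24 and -0.303, and 2.04 and 1.41. The sign was kept under every alternative run for the sums of S genes and for the fibroblast-like and endothelial-like G2/M sums; the macrophage G2/M sum kept it under 6 of 11 and its share under 3 of 12. Of 802 single-member values 8 reversed, all with cell cycle genes kept in the clustering.
At Leiden resolution 0.5, macrophage G2/M was 0.26 with 3 members 2-fold higher and S 0.69 with 8; at 2.0, macrophage G2/M was -0.12, S 0.42 with 1 member, fibroblast S 0.58 and endothelial G2/M 1.45. With at most 5% mitochondrial UMIs, endothelial G2/M was 2.24 (share 4.66) and S 0.71, fibroblast G2/M 1.77, and macrophage G2/M 0.17 with 1 member and S 1.001 (share 6.11) with 11. With doublets kept, G2/M was 1.49 in endothelial, 1.54 in fibroblast and 0.0800 in macrophage cells, and fibroblast S 0.46 (share 1.01). With a minimum of 2000 UMIs, macrophage G2/M was 0.24 with 2 members and S 0.66 with 8, endothelial S 0.69 and fibroblast S 0.58.
For shares, a minimum of 2 UMIs per cell gave 3.62 for endothelial G2/M and 7.57 for macrophage S, and a minimum of 5000 UMIs per barcode gave 3.56 for endothelial G2/M. Without thinning, shares were 19.1 (endothelial G2/M), 33.0 (fibroblast G2/M), 25.35 (endothelial S), 28.6 (fibroblast S) and 12.6 (macrophage S). Thinned to 5000 UMIs they were 4.45 (fibroblast G2/M), 4.95 (endothelial S) and 3.35 (fibroblast S). As a mean over cells, G2/M was 0.86 in endothelial and 1.63 in fibroblast cells, and S was 0.32 in endothelial, 0.53 in fibroblast and 0.48 in macrophage cells.
With cell cycle genes kept in the clustering, G2/M was 0.25 in endothelial (share -0.275, 6 members higher), 1.67 in fibroblast (share 4.01) and -0.17 in macrophage cells (3 members higher, 3 lower), and S was 0.27, 0.73 and 0.32. In endothelial cells Rrm2 (-0.22), Ccnb2 (-0.0529), Bub1 (-0.69), Cenpe (-0.11), Cenpa (-0.0827), Kif23 (-0.0285), Nusap1 (-0.28) and Cdc20 (-0.69) then reversed. By construction this setting places dividing cells together, and of the MMS G2/M cells 1 of 12 endothelial, 0 of 15 macrophage and 46 of 47 fibroblast cells stayed in their class, with 4 of 25 of the control macrophage G2/M cells. With doublets kept, 27 of 47 fibroblast, 11 of 12 endothelial and 14 of 15 macrophage G2/M cells of MMS stayed. Of the fibroblast cells, 15 became unnamed and 5 moved to another named class, and the MMS class held 1470 cells in place of 1819. With a minimum of 2000 UMIs, 42 of 47 fibroblast, 12 of 12 endothelial and 9 of 15 macrophage cells stayed.
Leaving out Hmgb2 gave G2/M sums of 2.69 in endothelial, 2.06 in fibroblast and -0.0731 in macrophage cells, and leaving out Pcna gave S sums of 0.68 in endothelial and 0.75 in fibroblast cells. Of 3 alternatives chosen after seeing the data, leaving out Hmgb2 and Smc4 gave 3.51 in endothelial, 2.435 in fibroblast and -0.0786 in macrophage cells, leaving out the Acan cluster gave 1.66 (G2/M) and 0.58 (S) in fibroblast cells, and equal cluster weights gave G2/M 1.57, 1.22 and -0.39 and S 0.40, 0.50 and 0.35 in endothelial, fibroblast and macrophage cells. Other causes were not tested.
No paired analysis was possible because each group has 1 library, and no replicate could be left out. Counting error of UMIs is small for the sums, but their intervals do not cover which cells were sampled. Of 65 alternative values of the sums, 46 lay outside the interval of the reported value. Shares in classes of few cells are limited by their depth and number.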
